A study of Homo sapiens with 30 samples.

Results

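The genes described here are 37 genes of endocytosis, the machinery by which a cell takes in vesicles from its surface and sorts what they carry. They were chosen by symbol, as every probe set whose platform annotation gives exactly 1 of these 37 symbols. All 37 were measured, by 101 of the 22215 probe sets tested. Of these genes, 6 have 1 probe set and 31 have several, up to 5 for 1 gene. A probe set is a group of short probes on the array whose signals are combined into 1 log2 level for a transcript, and levels of different probe sets are not compared with each other below.

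In clathrin-mediated endocytosis, adaptors gather cargo at the plasma membrane, clathrin builds a coat around the bud, and dynamin cuts the vesicle off. Caveolae, formed by caveolins, and flotillin-rich membrane are further routes inward. Vesicles then fuse with early endosomes marked by Rab5, from where cargo is recycled, returned by sorting nexins and retromer, or passed on to late endosomes and lysosomes. In the intestinal epithelium these routes carry nutrients, lipoproteins and membrane proteins away from the apical surface, which is the surface that met the particles in these cultures.

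The cultures were mixtures of 2 human colon cancer lines seeded at 75% Caco-2, a line whose differentiated cells resemble the absorptive cells of the gut, and 25% HT29-MTX, a methotrexate-selected line that secretes mucus. All groups shared 14 days of growth on Transwell inserts before exposure. Suspensions of multi-walled carbon nanotubes (MWCNT) or titanium dioxide nanobelts (TiO2-NB) at 10 or 100 µg/ml were then placed on the apical side for 1 or 24 h, while the controls of each time had fresh medium alone, and no particle-free suspension is named as a control. There were 10 groups with 3 arrays each, labelled as biological replicates. They measure RNA, and neither particle uptake nor protein is among the values analysed here.

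The median log2 level of an array ran from 6.45 to 6.49, and replicate arrays correlated at 0.997 or more. The deposited values had been made alike in distribution over all arrays, so a change here means a change against the rest of the array. Levels of marker genes are those of the probe set with the highest mean level for each gene. All markers listed for the labelled cell types (13 enterocyte, 6 epithelial, 9 mucus and goblet cell genes) had mean levels above the lowest 1 in 3 of probe sets. So did 5 of 7 leukocyte genes, 6 of 7 fibroblast and muscle genes and 1 of 4 endothelial genes, so this threshold alone does not separate the labelled types from others. The leukocyte genes PTPRC and TYROBP lay in the lowest 1 in 3, and LYZ, listed with them, lay above 95.3% of probe sets. The signal of 18S ribosomal RNA (mean of 3 probe sets) was higher than in the control by 0.68 (MWCNT, 10 µg/ml), 0.93 (MWCNT, 100 µg/ml), 0.47 (TiO2-NB, 10 µg/ml) and 0.43 (TiO2-NB, 100 µg/ml) on the log2 scale at 1 h. The exact two-sided permutation p was 0.1 for 3 of these and 0.4 for TiO2-NB at 10 µg/ml, and 0.1 is the smallest that 3 against 3 arrays can give. At 24 h the 18S differences lay between 0.065 and 0.27. The 28S signal was higher than in the control by 0.11 to 0.20 at 1 h, and at 24 h it differed by -0.17 with TiO2-NB at 100 µg/ml. The part of either signal in the calls below was not tested beyond the 18S covariate given with them.

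Changes in the uptake genes were small. Against the control of the same time, 16 of the 37 genes had at least 1 probe set that passed the test in any of the 8 comparisons, 14 of them at 1 h and 3 at 24 h, and 21 genes had none. A probe set is called here when its adjusted p is under 0.05 by limma, with Benjamini-Hochberg adjustment over all 22215 probe sets of the comparison. At 1 h, 17.8% of member probe sets were called in at least 1 of the 4 comparisons, against 15% of all probe sets. In 2 or more of them it was 2.97% against 7.97%. Each value after ± is limma's standard error of a log2 change, with n = 3 arrays a group. The largest change was in DAB2, which fell 1.53-fold after 24 h with 100 µg/ml TiO2-NB. No other called member changed by more than 1.35-fold in any comparison with control.

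The share of members called was near or below that of all probe sets in each comparison. At 1 h, 5 member probe sets were called with MWCNT at 10 µg/ml (4.95% of 101, against 6.46% of all probe sets). Of them 1 rose and 4 fell, where 2.56% of all probe sets rose and 3.9% fell. With MWCNT at 100 µg/ml 5 were called (4.95% against 7.78%), and all 5 rose, where 3.51% of all rose and 4.27% fell. With TiO2-NB at 10 µg/ml 8 were called (7.92% against 7.84%), and all 8 fell, where 2.61% of all rose and 5.24% fell. With TiO2-NB at 100 µg/ml 4 were called (3.96% against 8.43%), 1 with a rise and 3 with a fall, where 2.65% of all rose and 5.78% fell. These 4 comparisons share 1 control, and the 22 calls, 7 up and 15 down, are 5.45% of the 404 tests against 7.63% over all probe sets. At 24 h, limma called 0 members with MWCNT at 10 µg/ml (0.0045% of all probe sets) and at 100 µg/ml (0.009%). It also called 0 with TiO2-NB at 10 µg/ml (0.0585%). In these 3 comparisons 5, 7 and 3 members (4.95%, 6.93% and 2.97%) had an unadjusted p under 0.05, beside 4.29%, 5.56% and 7.59% of all. TiO2-NB at 100 µg/ml for 24 h gave 3 (2.97% against 3.53%), all of them falls, where 0.729% of all rose and 2.8% fell.

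**Figure D1:**
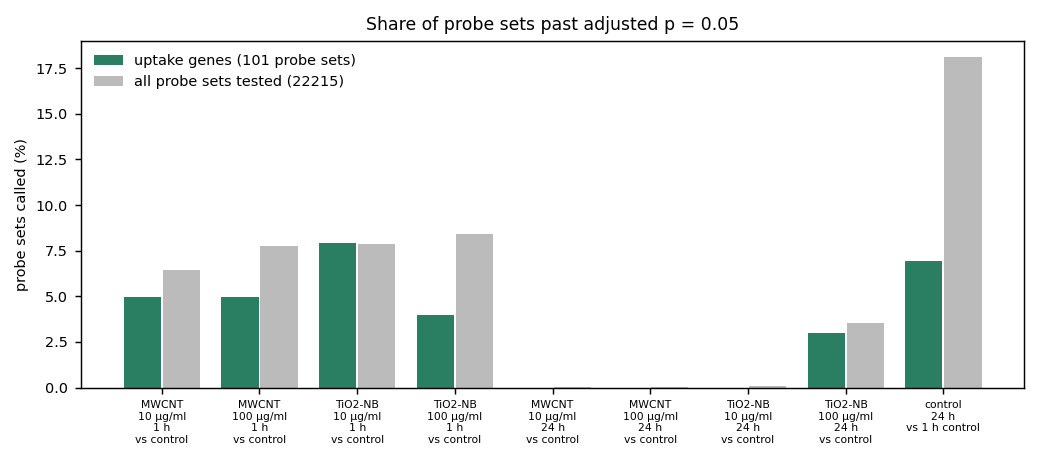
Bars show the percent of probe sets with an adjusted p under 0.05 (vertical axis) in each comparison with control and between the 2 controls, for the 101 probe sets of the uptake genes (green) and for all 22215 (grey). The green bar exceeds the grey one only with TiO2-NB at 10 µg/ml for 1 h, by 7.92% against 7.84%.

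The sizes of change were small for members and for all probe sets alike. The median size of a member's log2 change lay between 0.0604 and 0.0818 in the 4 comparisons at 1 h, where it was 0.0743 to 0.0798 over all probe sets. At 24 h it lay between 0.0358 and 0.0463, beside 0.0464 to 0.0610 over all. The spread between replicates had the same scale: the pooled standard deviation within groups had a median of 0.0605 over the members and ranged from 0.0313 to 0.185. In the lowest 1 in 3 of all probe sets by mean level lay 14 member probe sets (13.9%), among them both probe sets of HIP1, a clathrin and actin binding protein. No called probe set is among these 14.

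**Figure D2:**
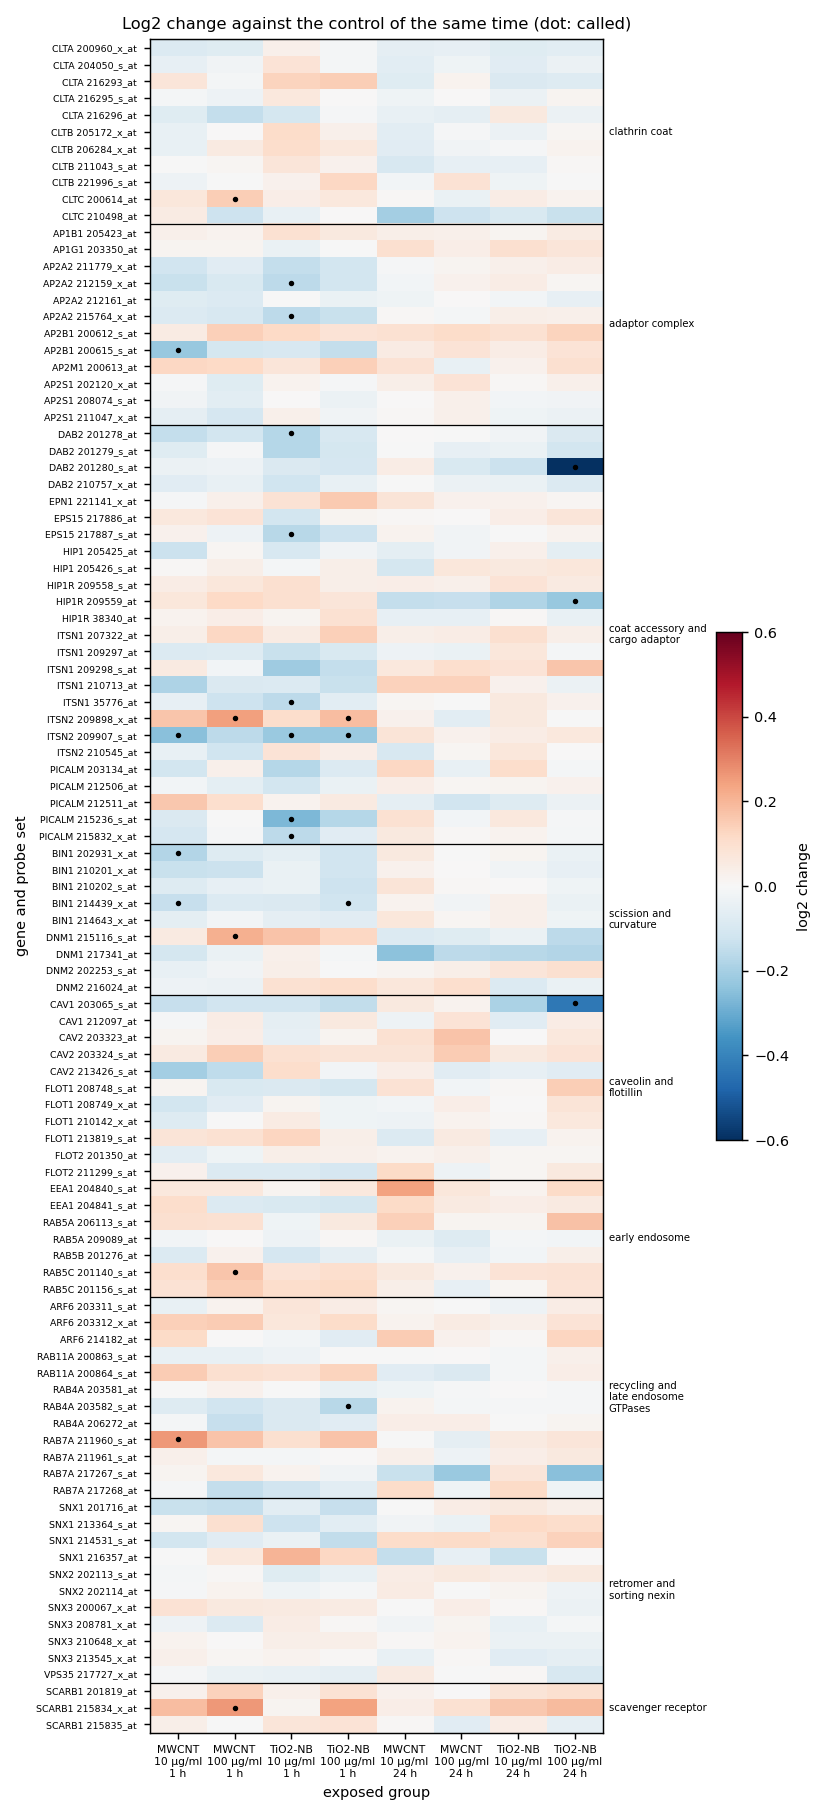
Each row is 1 of the 101 probe sets, grouped by role, and each column is an exposed group set against the control of its time; colour gives the log2 change (blue lower, red higher), and a dot marks a call. The 22 dots at 1 h lie in several roles on pale cells, and the 3 dots at 24 h all lie in the column of TiO2-NB at 100 µg/ml, with DAB2 (a log2 change of -0.61) the darkest.

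After 24 h with 100 µg/ml TiO2-NB, 3 uptake genes fell and 0 rose, each by 1 of its probe sets. They were DAB2, a clathrin adaptor that brings receptors of the LDL receptor family into coated pits, CAV1, the scaffold protein of caveolae, and HIP1R, which links clathrin coats to actin filaments. For DAB2 (probe set 201280_s_at) the 3 controls read 9.34, 9.35 and 9.27 and the exposed arrays 8.87, 8.74 and 8.51. All 3 exposed arrays lay below every control, and below every other array of the study. The log2 change was -0.61 ± 0.070 (1.53-fold lower, adjusted p = 2.06e-06 by limma). For CAV1 (203065_s_at) the controls read 7.73, 7.69 and 7.68 and the exposed arrays 7.43, 7.30 and 7.10. These did not overlap either, with a change of -0.43 ± 0.083 (1.35-fold lower, adjusted p = 0.00176). HIP1R (209559_at) read 5.94, 5.99 and 6.00 in the controls and 5.75, 5.71 and 5.79 after exposure, a change of -0.23 ± 0.057 (1.17-fold lower, adjusted p = 0.0214) with no overlap. In bulk samples, fewer cells of a type and less RNA per cell cannot be told apart.

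The other probe sets of the same genes did not pass the test. DAB2 has 3 more, which changed by -0.087 ± 0.047 (201278_at), -0.11 ± 0.066 (201279_s_at) and -0.083 ± 0.044 (210757_x_at), with limma's adjusted p between 0.454 and 0.516. The second probe set of CAV1 (212097_at) changed by 0.045 ± 0.084, and those of HIP1R by 0.053 ± 0.061 (209558_s_at) and -0.043 ± 0.037 (38340_at). In DAB2 the called probe set thus fell by 0.50 to 0.53 more than its partners. Each such difference, including that of 0.47 within CAV1, separated the exposed arrays from the controls completely, at the smallest exact two-sided permutation p of 0.1. The called probe set was picked by its p in these same arrays, so this separation is no independent support for a difference between probe sets. A single called probe set was also the usual case in this comparison: it held for 349 of the 433 genes with several probe sets and a call (80.6%), and for 3 of 3 members. Which transcripts or exons each probe set covers is not given in the tables used here.

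**Figure D3:**
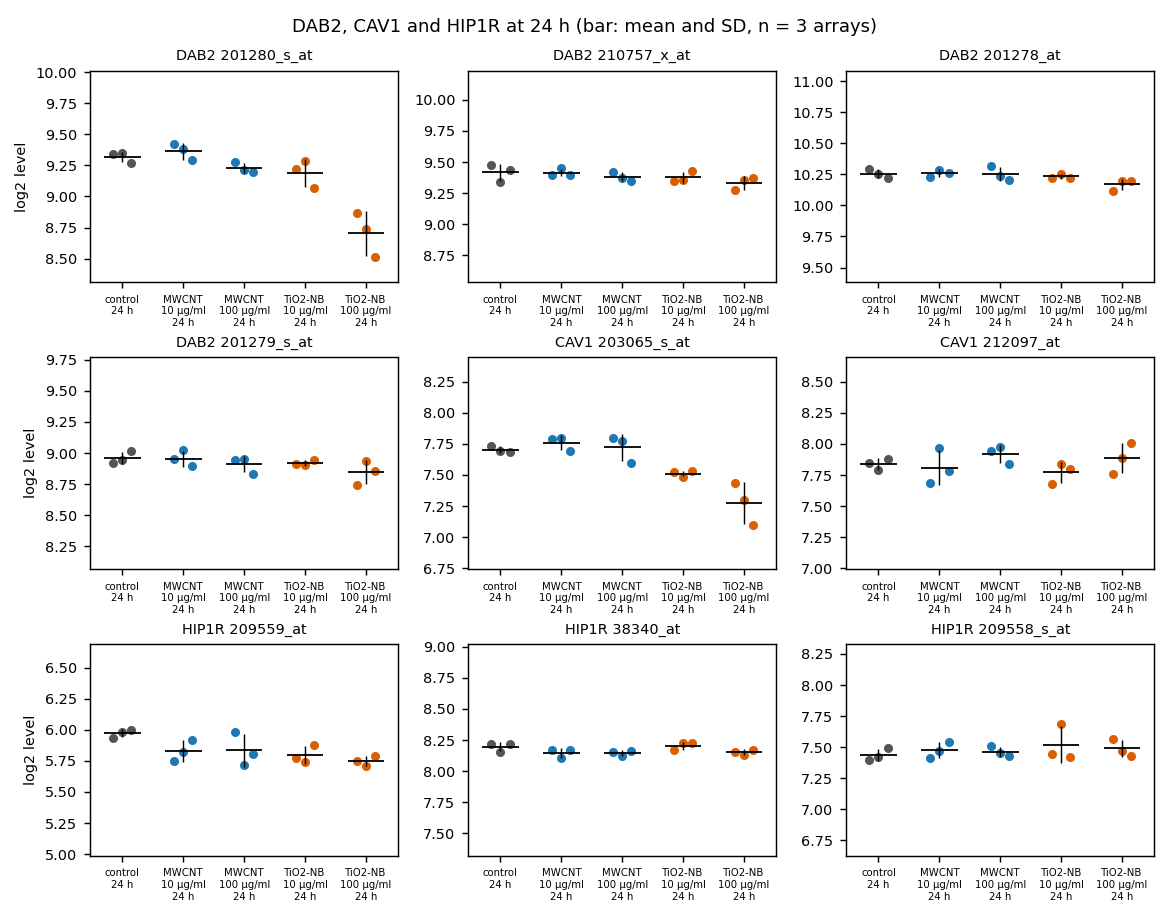
Points are single arrays at 24 h, horizontal bars the group means and vertical lines the standard deviation (n = 3), as log2 level, for every probe set of DAB2, CAV1 and HIP1R; each panel spans the same number of log2 units. TiO2-NB at 100 µg/ml lies lowest in the panels of DAB2 201280_s_at (8.51 to 8.87) and CAV1 203065_s_at (7.10 to 7.43), and for the partner probe sets of both genes the log2 change lies between -0.11 and 0.045.

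The letters just before the start of these 3 genes are shown because the genes fell in the same comparison, so that their start regions can be read side by side. Each line is the 250 bases before the RefSeq transcription start on GRCh38.p14, 5′ to 3′ on the gene's strand. Capitals mark a GC box (GGGCGG, or its reverse complement CCGCCC where it lies on the other strand) or a CCAAT box. DAB2 lies on the minus strand at chr5:39424981-39425230, CAV1 on the plus strand at chr7:116524759-116525008 (the most upstream of 3 starts listed) and HIP1R on the plus strand at chr12:122834498-122834747 (the most upstream of 2).
DAB2: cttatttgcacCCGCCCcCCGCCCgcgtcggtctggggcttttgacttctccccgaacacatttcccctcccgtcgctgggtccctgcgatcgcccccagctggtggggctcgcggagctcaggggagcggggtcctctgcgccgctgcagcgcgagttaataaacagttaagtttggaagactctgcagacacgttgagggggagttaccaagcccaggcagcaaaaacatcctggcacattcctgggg
CAV1: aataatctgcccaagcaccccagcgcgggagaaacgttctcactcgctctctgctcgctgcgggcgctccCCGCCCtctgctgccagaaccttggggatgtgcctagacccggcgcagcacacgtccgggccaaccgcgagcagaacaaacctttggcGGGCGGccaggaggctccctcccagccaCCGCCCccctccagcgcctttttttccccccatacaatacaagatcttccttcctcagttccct
HIP1R: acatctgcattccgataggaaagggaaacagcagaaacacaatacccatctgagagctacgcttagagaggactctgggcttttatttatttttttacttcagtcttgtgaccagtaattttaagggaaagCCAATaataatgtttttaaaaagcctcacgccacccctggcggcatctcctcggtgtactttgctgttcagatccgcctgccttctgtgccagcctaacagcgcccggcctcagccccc
DAB2 holds 2 GC boxes, CAV1 holds 3 and HIP1R 0, while 42.6% of the 35116 promoters in the table hold at least 1. HIP1R alone of the 3 holds a CCAAT box (1, against 32% of promoters). The letters of the TATA box, TATAAA, were searched on both strands and were found in none of the 3 windows, while 10.7% of promoters hold them. The same holds for the AP-1 motif, written TGANTCA and held by 6.57% of promoters, and for the E-box, written CACGTG and held by 6.34%. The windows of DAB2 and CAV1 are 62.4% and 63.6% G and C, with 18 CpG pairs each, and that of HIP1R is 48% with 8. A match of letters is a description, and no binding was measured.

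The lower dose and the other particle gave smaller differences in these 3 probe sets at 24 h, all set against the same 3 controls. DAB2 (201280_s_at) read 9.22, 9.29 and 9.07 with TiO2-NB at 10 µg/ml, which overlaps the controls, and the change of -0.13 ± 0.070 was not called (adjusted p = 0.719 by limma). With MWCNT it read 9.43, 9.38 and 9.29 at 10 µg/ml and 9.28, 9.22 and 9.19 at 100 µg/ml. The change with MWCNT at 100 µg/ml was -0.091, with a 95% interval from -0.24 to 0.054. CAV1 (203065_s_at) read 7.52, 7.48 and 7.53 with TiO2-NB at 10 µg/ml, all below the controls, yet the change of -0.19 ± 0.083 was not called (adjusted p = 0.609). With MWCNT at 100 µg/ml CAV1 read 7.80, 7.77 and 7.60, on both sides of the controls. HIP1R (209559_at) was below its control mean in all 4 exposed groups at 24 h, by values of -0.14 (MWCNT, 10 µg/ml), -0.14 (MWCNT, 100 µg/ml), -0.18 (TiO2-NB, 10 µg/ml) and -0.23 (TiO2-NB, 100 µg/ml), and only the last was called.

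Set against each other directly, the doses and particles differed in DAB2 at 24 h. DAB2 (201280_s_at) was lower at 100 than at 10 µg/ml TiO2-NB by a log2 difference of -0.49 ± 0.070 (1.40-fold, adjusted p = 0.000271 by limma), and the 3 arrays at 100 µg/ml lay below those at 10 µg/ml. It was the 1 member called between the doses (0.99% of members, against 1.83% of all probe sets). For CAV1 and HIP1R the dose differences were -0.24 (95% interval -0.41 to -0.064) and -0.047 (-0.16 to 0.071), not called. At 100 µg/ml, 2 members differed between the particles (1.98% against 2.88%). DAB2 was higher with MWCNT than with TiO2-NB by 0.52 ± 0.070 (1.44-fold, adjusted p = 4.32e-05) and CAV1 by 0.45 ± 0.083 (1.36-fold, adjusted p = 0.00171), with no overlap of arrays. HIP1R differed between the particles by 0.086 (-0.032 to 0.20). A moderated F-test over the 5 groups at 24 h called 2 members (3.14% of all probe sets), again DAB2 and CAV1.

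The fall of DAB2 with 100 µg/ml TiO2-NB at 24 h passed in every alternative analysis and with any 1 array left out, where its change lay between -0.70 and -0.52. CAV1 was called with any 1 array left out, but not in a fit on the compared groups alone (adjusted p = 0.0731), which has fewer arrays for the spread. HIP1R was not called in that fit (adjusted p = 0.0684), with an intensity trend and robust variances (0.0651), or without control replicate 2 (0.0844) or 3 (0.0989) or exposed replicate 1 (0.0549) or 2 (0.114). In the fit on the compared groups alone, the dose difference of DAB2 (adjusted p = 0.305) and the particle differences of DAB2 (0.0970) and CAV1 (0.136) were not called. Among markers of the culture's own and other cells, MUC5AC, a gel-forming mucin of goblet cells, rose by 0.33 and CD14, a leukocyte marker, by 0.31 in the same arrays, the 1 call among 9 mucus and the 1 among 7 leukocyte genes. FCGBP, also on the mucus list, differed by 0.35 ± 0.16 without a call (adjusted p = 0.344 by limma). The mean level of the 7 leukocyte genes was 6.17 to 6.24 in the controls and 6.15 to 6.26 after exposure, that of the 9 mucus genes 9.06 to 9.09 and 9.14 to 9.19, and their part in the falls was not tested.

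At 1 h the calls were spread over adaptors, coat scaffolds, scission proteins and Rab proteins, with log2 changes no larger than 0.27 in size. ITSN2, a scaffold that ties coat proteins to actin assembly, was the only member gene called in all 4 exposed groups. Its calls ran in opposite directions in 2 of its probe sets. Probe set 209907_s_at read 7.56, 7.39 and 7.48 in the control and 7.32, 7.16 and 7.20 with MWCNT at 10 µg/ml. With TiO2-NB it read 7.24, 7.23 and 7.29 at 10 µg/ml and 7.15, 7.20 and 7.40 at 100 µg/ml. Only the last of these groups overlapped the control, by 1 array. The changes were -0.25 ± 0.062, -0.22 ± 0.062 and -0.22 ± 0.062 in that order (adjusted p = 0.0160, 0.0272 and 0.0234 by limma), and -0.16 ± 0.062 with MWCNT at 100 µg/ml, which was not called (0.129).

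Probe set 209898_x_at of ITSN2 went the other way. It read 8.78, 8.90 and 8.95 in the control, 9.14, 9.12 and 9.12 with MWCNT at 100 µg/ml and 9.02, 9.03 and 9.14 with TiO2-NB at 100 µg/ml. Both exposed groups lay above all controls. The rises were 0.25 ± 0.057 (1.19-fold, adjusted p = 0.00764 by limma) and 0.18 ± 0.057 (1.14-fold, adjusted p = 0.0458). The gap between both probe sets widened against the control by 0.40 with MWCNT at 100 µg/ml, 0.42 with MWCNT at 10 µg/ml and 0.41 with TiO2-NB at 100 µg/ml, each at the smallest exact two-sided permutation p of 0.1. These comparisons share the same control arrays, and a probe set of the pair was picked by its p in the same arrays. The gaps are thus no independent support for a difference between probe sets. The name ending x_at marks a probe set whose probes can also match other transcripts, and 25 of the 101 member probe sets carry it. The third probe set of ITSN2 (210545_at) lies in the lowest 1 in 3 by level and was not called.

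Among the subunits of AP-2, the adaptor complex that joins clathrin to cargo at the plasma membrane, AP2B1 fell with MWCNT and AP2A2 with TiO2-NB, both at 10 µg/ml. AP2B1 (200615_s_at), the beta subunit, read 7.79, 7.90 and 7.82 in the control and 7.54, 7.62 and 7.66 with MWCNT at 10 µg/ml. The groups did not overlap, and the change was -0.23 ± 0.050 (1.17-fold lower, adjusted p = 0.00627 by limma). Its other probe set (200612_s_at) changed by 0.047 ± 0.056. AP2A2, an alpha subunit, fell in 2 of its 4 probe sets with TiO2-NB at 10 µg/ml. Probe set 215764_x_at read 7.94, 7.98 and 7.94 in the control against 7.75, 7.80 and 7.83, a change of -0.16 ± 0.044 (adjusted p = 0.0257). Probe set 212159_x_at read 9.85, 10.06 and 9.90 against 9.81, 9.83 and 9.70, a change of -0.16 ± 0.046 (adjusted p = 0.0375), and -0.095 without control replicate 2 (0.257). Exposed arrays lay below the controls in both, and a further probe set (211779_x_at) changed by -0.14 ± 0.048 without a call (adjusted p = 0.0759).

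The coat accessory proteins, the role with the most member probe sets, supplied 6 of the 8 calls with TiO2-NB at 10 µg/ml for 1 h. All were downward, and the remaining 2 were those of AP2A2. The 8 calls are 7.92% of members, against 7.84% of all probe sets. PICALM, which helps shape the coat and sorts SNARE proteins into it, fell in 2 of 5 probe sets. Probe set 215236_s_at read 8.56, 8.58 and 8.48 in the control and 8.34, 8.45 and 8.02 after exposure, a change of -0.27 ± 0.072 (1.21-fold lower, adjusted p = 0.0196 by limma). Replicate 3 lay well below the other two exposed arrays, and without it the change was -0.15 (adjusted p = 0.158). Probe set 215832_x_at of PICALM read 7.63, 7.64 and 7.56 against 7.48, 7.54 and 7.35, a change of -0.16 ± 0.045 (adjusted p = 0.0332), and -0.10 without replicate 3 (0.216). Exposed and control arrays did not overlap in either.

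The last 3 of these calls were near the threshold or small. DAB2 (201278_at, not the probe set that fell at 24 h) read 10.17, 10.35 and 10.25 in the control and 10.10, 10.13 and 10.04 after exposure, a change of -0.17 ± 0.047 (adjusted p = 0.0278 by limma). EPS15, a scaffold at the rim of the pit (217887_s_at), read 8.61, 8.72 and 8.82 against 8.56, 8.59 and 8.50, a change of -0.17 ± 0.052 (adjusted p = 0.0490). ITSN1 (35776_at), the relative of ITSN2, read 8.34, 8.33 and 8.40 against 8.25, 8.12 and 8.22, a change of -0.16 ± 0.049 (adjusted p = 0.0490). No exposed array of these 3 reached the lowest control. The accessory and cargo adaptor genes had a median log2 change of -0.11 over their 25 probe sets in this comparison, where the median over all probe sets was 0.0051. The medians of this role in the other comparisons are not given here, and a change of the role as a whole was not tested.

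BIN1, an amphiphysin that senses and bends membrane, was called in 2 of its 5 probe sets, with falls only. It had calls with MWCNT at 10 µg/ml and TiO2-NB at 100 µg/ml, and none with MWCNT at 100 µg/ml or TiO2-NB at 10 µg/ml. Its probe set 214439_x_at read 9.21, 9.16 and 9.18 in the control, 9.02, 9.04 and 9.07 with MWCNT at 10 µg/ml and 8.99, 9.08 and 9.11 with TiO2-NB at 100 µg/ml. Both groups lay below the controls, by -0.14 ± 0.038 (adjusted p = 0.0270 by limma) and -0.12 ± 0.038 (adjusted p = 0.0498). With MWCNT at 10 µg/ml a second probe set (202931_x_at) read 9.04, 8.96 and 8.95 against 9.21, 9.07 and 9.20, a change of -0.18 ± 0.050 (adjusted p = 0.0335). With 1 array left out this call was lost in 4 of 6 omissions, and each of the calls of 214439_x_at in 5 of 6. DNM1, a dynamin GTPase that cuts vesicles from the membrane (215116_s_at), rose with MWCNT at 100 µg/ml, from 5.79, 5.87 and 5.76 to 6.04, 6.03 and 5.98. The rise of 0.21 ± 0.059 (1.16-fold, adjusted p = 0.0279) left no overlap.

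CLTC, the clathrin heavy chain (200614_at), rose with MWCNT at 100 µg/ml for 1 h. It read 12.21, 12.29 and 12.26 in the control and 12.35, 12.45 and 12.40 after exposure, all higher, a change of 0.15 ± 0.040 (1.11-fold, adjusted p = 0.0227 by limma). In the same group RAB5C, a Rab5 of early endosomes (201140_s_at), read 9.89, 9.89 and 9.90 against 9.81, 9.70 and 9.68, a change of 0.17 ± 0.052 (adjusted p = 0.0497), and its second probe set changed by 0.15 ± 0.048 without a call (adjusted p = 0.0615). With 18S as a covariate the changes of CLTC and RAB5C were 0.077 (adjusted p = 0.514 by limma) and 0.044, neither called. SCARB1, a receptor for high-density lipoprotein (215834_x_at), read 5.35, 5.57 and 5.63 against 5.36, 5.37 and 5.04. Its arrays overlapped the controls, the change of 0.26 ± 0.079 had an adjusted p of 0.0438, and without control replicate 3 it was 0.15 (0.263).

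RAB7A, the Rab protein of late endosomes, rose with MWCNT at 10 µg/ml in 1 of its 4 probe sets (211960_s_at). The others changed by 0.033 ± 0.036 (211961_s_at), 0.017 ± 0.093 (217267_s_at) and -0.0057 ± 0.079 (217268_at), none called. The called probe set read 10.32, 10.08 and 10.34 in the control and 10.52, 10.48 and 10.52 after exposure, a change of 0.26 ± 0.070 (1.20-fold, adjusted p = 0.0238 by limma). Control replicate 2 was the lowest of these arrays, and without it the change was 0.18 (adjusted p = 0.174). RAB4A, of rapid recycling (203582_s_at), read 10.03, 9.98 and 10.02 in the control and 9.76, 9.89 and 9.88 with TiO2-NB at 100 µg/ml. That fall of -0.17 ± 0.050 (1.12-fold, adjusted p = 0.0405) left no overlap. Of called members with several probe sets, 3 of 4 (MWCNT, 10 µg/ml), 5 of 5 (MWCNT, 100 µg/ml), 4 of 6 (TiO2-NB, 10 µg/ml) and 2 of 3 (TiO2-NB, 100 µg/ml) had a single called one. Over all such genes it was 78.5%, 75.9%, 75.1% and 73.9%.

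**Figure D4:**
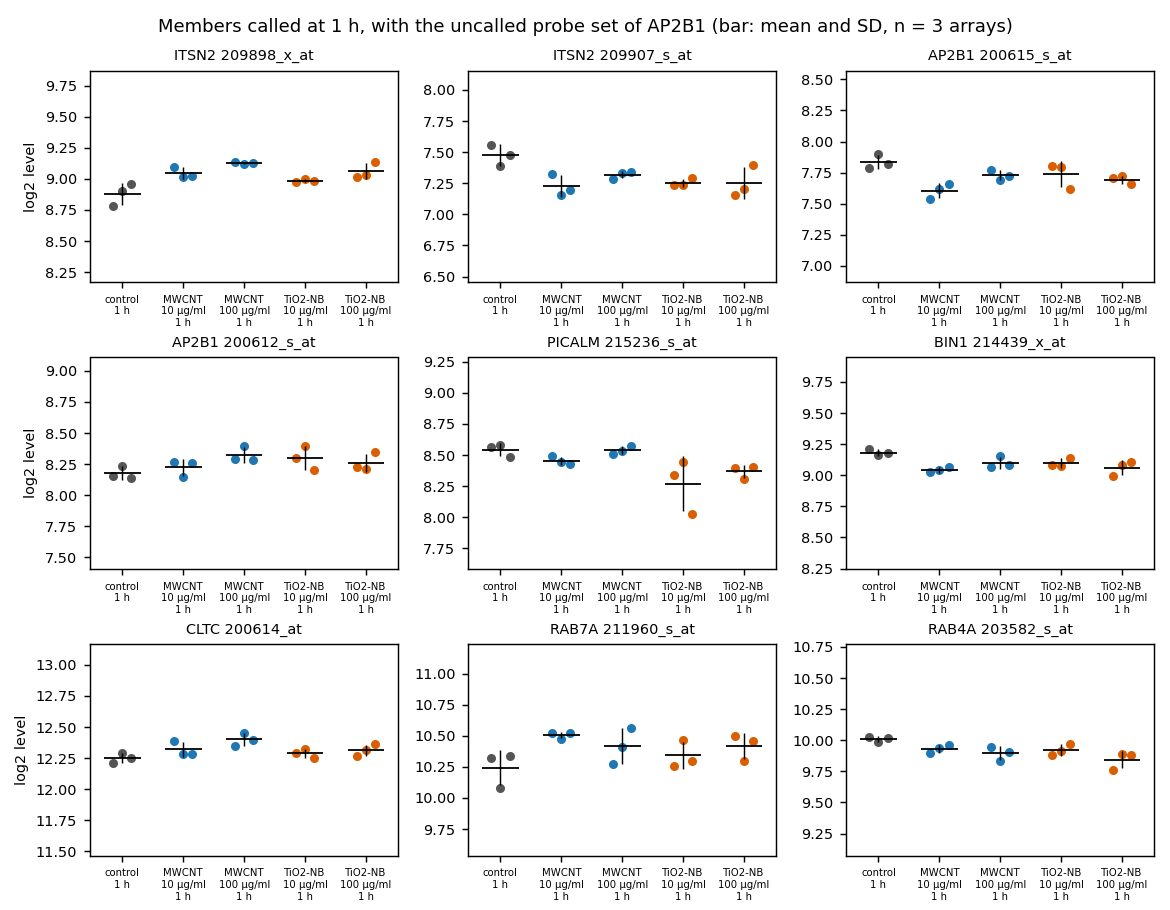
Points are single arrays at 1 h, horizontal bars the group means and vertical lines the standard deviation (n = 3), as log2 level, for 8 called probe sets and the uncalled AP2B1 200612_s_at; each panel spans the same number of log2 units. ITSN2 209898_x_at lies above its control (8.78 to 8.95) and ITSN2 209907_s_at mostly below (7.39 to 7.56), and PICALM 215236_s_at has 1 low array (8.02) with TiO2-NB at 10 µg/ml.

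These 1 h calls rested on few arrays. When control replicate 1, 2 or 3 was left out, 2, 3 and 3 of the 5 calls with MWCNT at 10 µg/ml still passed, and without exposed replicate 1, 2 or 3 it was 2 each time. For MWCNT at 100 µg/ml the same 6 omissions left 2, 4, 1, 3, 1 and 2 of 5. For TiO2-NB they left 4, 1, 2, 1, 4 and 2 of 8 at 10 µg/ml, and 0, 1, 1, 0, 0 and 2 of 4 at 100 µg/ml. In a fit on the compared groups alone, limma called 0 members in each of the 4 comparisons. That fit called 0.378%, 0.504%, 0.986% and 1.21% of all probe sets, so few member calls could remain. With 18S entered as a covariate of the fit limma called 3, 0, 5 and 2 members, of which 1, 0, 3 and 1 were among the calls above. The shares of all probe sets were then 3.66%, 1.92%, 6.73% and 7.24%. The moderated F-test over the 5 groups at 1 h called 5 members (8.52% of all probe sets): AP2B1 200615_s_at, both ITSN2 probe sets, PICALM 215236_s_at and EPS15 217887_s_at.

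No member passed the test between doses or between particles at 1 h. Between 100 and 10 µg/ml limma called 0 members and 0% of all probe sets for MWCNT, and the same for TiO2-NB, with 5 and 3 members at an unadjusted p under 0.05. The members with the smallest p were RAB5B (201276_at, a difference of 0.11 ± 0.038) for MWCNT and SCARB1 (215834_x_at, 0.23 ± 0.079) for TiO2-NB, with adjusted p of 0.672 and 0.688. Between the particles, 0 members were called at 10 µg/ml (0.0675% of all probe sets) and 0 at 100 µg/ml (0%). At an unadjusted p under 0.05 it was 23 members (22.8%, against 13.7% of all) and 5 (4.95% against 9.25%). The higher share at 10 µg/ml was not tested. EPS15 (217887_s_at) had the smallest p at 10 µg/ml, being higher with MWCNT by 0.19 ± 0.052 (adjusted p = 0.134), and PICALM (215236_s_at) at 100 µg/ml, higher with MWCNT by 0.17 ± 0.072 (adjusted p = 0.480). At 24 h the members nearest a call with MWCNT were CLTC (210498_at, -0.20 ± 0.065) at 10 µg/ml and CAV2 (203323_at, 0.17 ± 0.067) at 100 µg/ml, with adjusted p of 1.00 and 0.892. The comparison of the MWCNT doses at 24 h gave 0 member calls (0% of all probe sets), and the particles at 10 µg/ml also 0 (0.0315%). An unadjusted p under 0.05 was held by 3 members (2.97%, against 6.65% of all) and by 4 (3.96% against 4.88%).

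The effect of 100 µg/ml differed between 24 h and 1 h for 4 members with TiO2-NB (3.96%, against 5.84% of all probe sets) and for 1 with MWCNT (0.99% against 2.71%). DAB2 (201280_s_at) changed by -0.61 at 24 h and by -0.099 at 1 h, where the control read 9.43, 9.48 and 9.46 and the exposed arrays 9.26, 9.33 and 9.49. The difference between these effects was -0.52 ± 0.099 (adjusted p = 0.00211 by limma), and it was called in every alternative and with any array left out. HIP1R (209559_at) changed by -0.23 at 24 h and 0.072 at 1 h, a difference of -0.30 ± 0.081 (adjusted p = 0.0274). Its 24 h control was itself above the 1 h control, and the exposed mean at 24 h (5.75) lay close to the 1 h control mean (5.78).

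SNX1, a sorting nexin of the retromer pathway (214531_s_at), had effects of opposite sign with TiO2-NB at 100 µg/ml, neither of them called alone. It read 8.68, 8.70 and 8.69 in the 1 h control against 8.60, 8.42 and 8.59 exposed, and 8.68, 8.68 and 8.59 in the 24 h control against 8.73, 8.80 and 8.85. Exposed arrays lay below the control at 1 h and above it at 24 h. The effects were -0.15 and 0.14, and their difference 0.29 ± 0.072 (adjusted p = 0.0145 by limma). DNM1 (215116_s_at) changed by 0.13 at 1 h and -0.16 at 24 h, a difference of -0.28 ± 0.084 (adjusted p = 0.0439). With MWCNT, ITSN2 (209898_x_at) rose by 0.25 at 1 h and changed by -0.064 at 24 h, a difference of -0.31 ± 0.080 (adjusted p = 0.0353). Of the 4 calls with TiO2-NB, 1 passed without 24 h control replicate 3, and 2 passed without 1 h control replicate 3, without exposed replicate 2 of 1 h and without exposed replicate 2 or 3 of 24 h. HIP1R was lost in 6 of 12 such omissions, DNM1 in 7, SNX1 in 3 and ITSN2 in 11, with largest adjusted p of 0.0915, 0.139, 0.0576 and 0.0855.

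Some members differed between the controls of 24 h and 1 h, which had no particles. In this comparison 7 member probe sets of 5 genes were called (6.93%, against 18.1% of all probe sets), 3 with a rise and 4 with a fall, where 7.22% of all rose and 10.9% fell. ARF6, a GTPase of the plasma membrane and recycling endosomes (203311_s_at), read 9.61, 9.65 and 9.56 at 1 h and 9.28, 9.29 and 9.36 at 24 h, with no overlap. It fell by 0.30 ± 0.049 (1.23-fold, adjusted p = 9.35e-05 by limma), a call that passed in every alternative and with any array left out. CLTB, a clathrin light chain, fell in 3 of 4 probe sets, by 0.20 ± 0.050 (205172_x_at, adjusted p = 0.00604), 0.18 ± 0.050 (206284_x_at, 0.0140) and 0.17 ± 0.053 (211043_s_at, 0.0227). In each of the 3 the 24 h controls lay below all 1 h controls, for example 8.07, 7.94 and 8.07 against 8.23, 8.29 and 8.16 in the first.

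The other 3 of these members each had 1 probe set that rose with time. DAB2 (210757_x_at) read 9.17, 9.28 and 9.23 at 1 h and 9.48, 9.34 and 9.43 at 24 h, a rise of 0.19 ± 0.044 (adjusted p = 0.00308 by limma). AP1G1, the gamma subunit of the AP-1 complex of the Golgi and endosomes (203350_at), read 8.24, 8.35 and 8.39 against 8.50, 8.53 and 8.51 (0.19 ± 0.048, adjusted p = 0.00705). HIP1R (209559_at) read 5.78, 5.82 and 5.74 against 5.94, 5.99 and 6.00 (0.19 ± 0.057, adjusted p = 0.0181). No arrays of the 2 times overlapped in these 3. Without 1 array, 3 to 6 of the 7 calls passed: 5, 5 and 6 without 1 h control replicate 1, 2 or 3, and 6, 3 and 6 without 24 h control replicate 1, 2 or 3. A fit on the controls alone called 3 members, 2 of them among the 7, and its share of all probe sets is not given here.

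**Figure D5:**
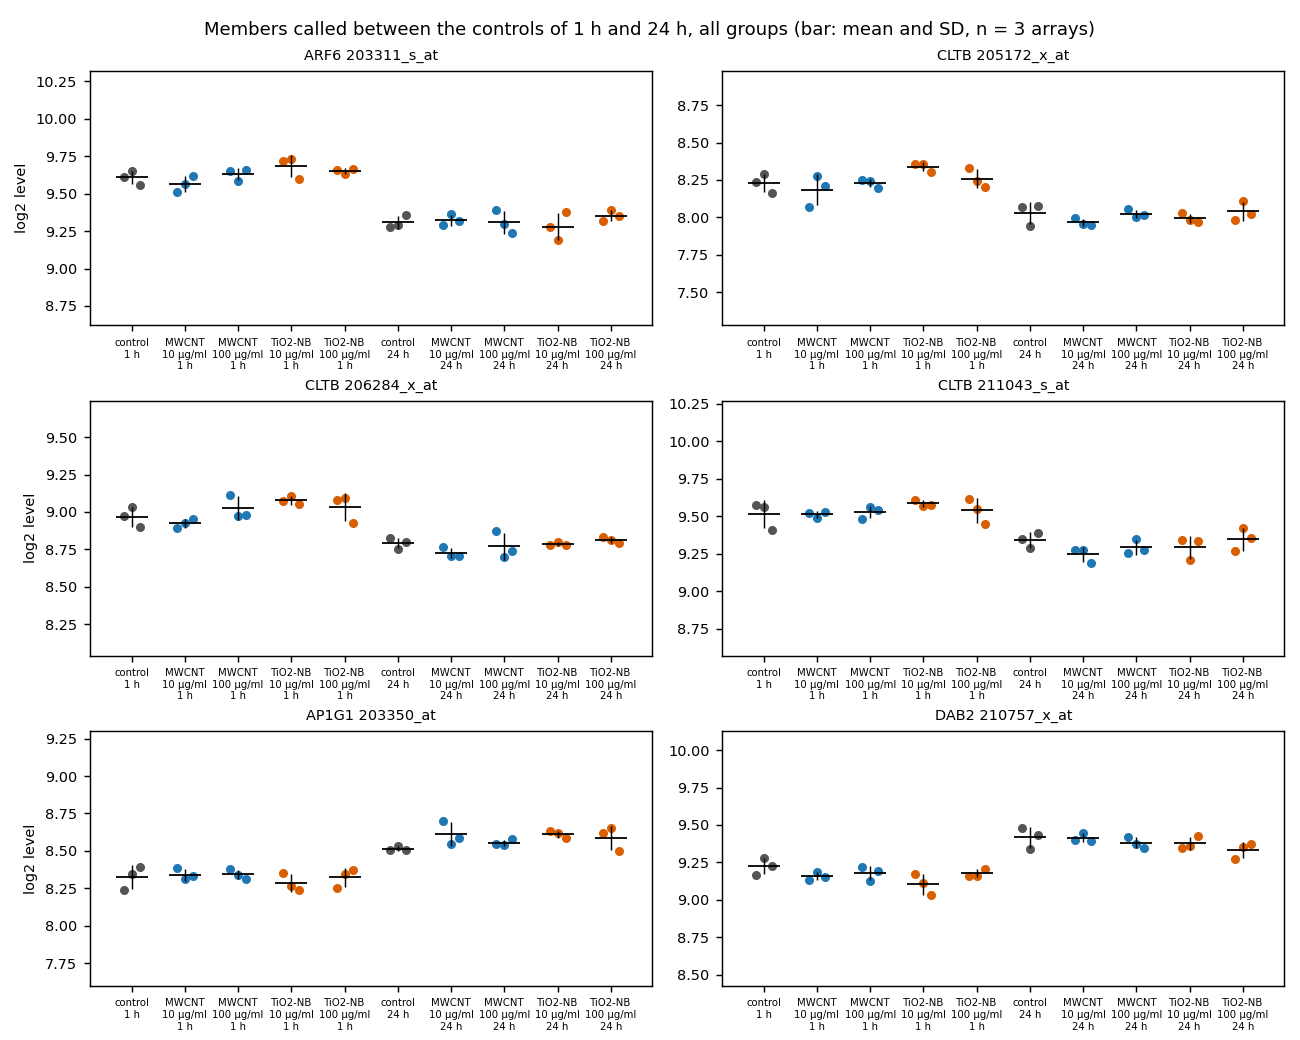
Points are single arrays of all 10 groups, horizontal bars the group means and vertical lines the standard deviation (n = 3), as log2 level, for 6 of the 7 probe sets called between the controls; each panel spans the same number of log2 units. ARF6 203311_s_at lies at 9.51 to 9.73 in every array at 1 h and at 9.19 to 9.39 in every array at 24 h, exposed or not.

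No probe set of 21 member genes was called against control at either time. Of the clathrin light chains CLTA and CLTB, the log2 changes over the 8 comparisons lay between -0.14 and 0.15 for CLTA and between -0.094 and 0.12 for CLTB. Of the adaptor subunits, AP2M1, which reads cargo signals, ranged from -0.044 to 0.14, AP2S1, the smallest AP-2 subunit, from -0.10 to 0.081, AP1B1 from 0.015 to 0.090 and AP1G1 from -0.040 to 0.097. The epsin EPN1, which binds ubiquitinated cargo, ranged from -0.0063 to 0.16, and HIP1 from -0.13 to 0.066. DNM2, the dynamin of most tissues, stayed between -0.082 and 0.10. None of these genes had an adjusted p by limma below 0.0945, that of AP2M1.

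The remaining uncalled genes belong to caveolae, flotillin membrane and endosomes. CAV2, the partner of CAV1 in caveolae, ranged from -0.20 to 0.17, and in the comparison in which CAV1 fell its 3 probe sets changed by 0.066, 0.081 and -0.067. FLOT1 and FLOT2, the flotillins, ranged from -0.11 to 0.15 and from -0.10 to 0.12. RAB5A and RAB5B ranged from -0.079 to 0.18 and from -0.099 to 0.033. EEA1, the tether through which Rab5 vesicles fuse, had 1 dim probe set of 2 and ranged from -0.11 to 0.24. RAB11A, of slow recycling, ranged from -0.087 to 0.15 and ARF6 from -0.068 to 0.15. Of the genes that carry cargo back from endosomes, SNX1 ranged from -0.15 to 0.21, SNX2 from -0.071 to 0.060, SNX3 from -0.082 to 0.088 and the retromer core subunit VPS35 from -0.096 to 0.052. The smallest adjusted p by limma among these genes was 0.0698, for SNX1. With TiO2-NB at 100 µg/ml for 24 h, the heavy chain CLTC (200614_at) changed by 0.020, with a 95% interval from -0.064 to 0.10.

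A wider list of 149 other uptake genes, of which 120 were measured by 228 probe sets, shows what else of the pathway changed in the group in which DAB2 fell. With TiO2-NB at 100 µg/ml for 24 h, 8.33% of the list's probe sets were called, against 3.53% of all. The list was drawn up with earlier results of these data known, so this excess describes the list and is no test of the pathway. In this list 4 genes had a rise and 13 a fall, and WASHC4, a subunit of the endosomal WASH complex, had both. The largest falls were those of MYO6, the myosin that walks vesicles inward (203215_s_at, -1.86 ± 0.14), AP3D1, the delta subunit of AP-3 (208710_s_at, -1.76 ± 0.18), WASL, an activator of branched actin (205809_s_at, -1.52 ± 0.22), and EGFR, an endocytosed growth factor receptor (201983_s_at, -1.09 ± 0.16). The scaffold CAVIN1, which builds caveolae together with CAV1, fell by 0.64 ± 0.12 (208790_s_at, adjusted p = 0.00121 by limma). CUBN, the cubilin receptor of absorptive cells, fell by 0.56 ± 0.12 (206775_at, adjusted p = 0.00485). RAB11FIP2 fell by 0.79, IGF2R by 0.76, SYNJ2 by 0.58, SNX27 by 0.58, RAB14 by 0.57 and CDC42 by 0.41, and the rises (DNAJC6, LRP5 and ARPC3) were 0.29, 0.25 and 0.15. Each of these values is that of 1 called probe set. Uncalled probe sets of the same genes are not given here, so a change of the whole gene is not shown. In a fit on the compared groups alone 3.07% of the list was called, 7 probe sets in place of 19 and all among them, against 0.977% of all.

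At 1 h the wider list was called at 8.33% (MWCNT, 10 µg/ml), 14% (MWCNT, 100 µg/ml), 6.58% (TiO2-NB, 10 µg/ml) and 9.21% (TiO2-NB, 100 µg/ml) of its probe sets, beside 6.46%, 7.78%, 7.84% and 8.43% of all. In the same order, with 18S as a covariate the shares were 3.51%, 1.75%, 5.26% and 7.46%, beside 3.66%, 1.92%, 6.73% and 7.24% of all. On the compared groups alone they were 0%, 0.439%, 0.877% and 1.32%, beside 0.378%, 0.504%, 0.986% and 1.21% of all. Both alternatives were chosen for this list after seeing the data, and the list itself was drawn up with earlier results known. The 32 probe sets called with MWCNT at 100 µg/ml became 20, 18 and 21 without control replicate 1, 2 or 3 and 36, 17 and 13 without exposed replicate 1, 2 or 3. Their split of 18 rises and 14 falls became 20 and 6 when arrays were centred on their medians. With MWCNT at 10 µg/ml the 19 became 11 without control replicate 2 and 9 and 12 without exposed replicate 1 or 3. With TiO2-NB the 15 at 10 µg/ml became 7 without exposed replicate 1, and the 21 at 100 µg/ml became 12 without exposed replicate 2.

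With MWCNT at 100 µg/ml, 16 genes of the list rose and 14 fell by their called probe sets (14% of the list, against 7.78% of all). With 18S as a covariate 4 of the 32 probe sets remained called, 1 up and 3 down (1.75% against 1.92% of all). Except where named, uncalled probe sets of the genes below are not given, so a change of a whole gene is not shown. The counts by role have no share over all genes beside them and were not tested. Of 21 measured endocytic receptors 5 rose, 1 fell and 15 had no call. LRP1 rose in both called probe sets (0.47 ± 0.10 and 0.59 ± 0.12), LRP6 in both called (0.54 ± 0.11 and 0.54 ± 0.13), LRP2, or megalin, by 0.50 ± 0.11, IGF2R, the receptor of lysosomal enzymes, by 0.40 ± 0.070 and LRP5 by 0.24 ± 0.066, while ASGR1, a liver lectin, fell by 0.19 ± 0.058. LRP5 and ASGR1 lie outside the rule for named genes and were chosen after their values were seen. Of 10 genes of caveolae and the EHD family 1 rose, EHD4 by 0.22 ± 0.049, and 4 fell, among them PACSIN3 by 0.19 ± 0.054 and CAVIN3 by 0.19 ± 0.058. Of 11 further coat and adaptor subunits 3 fell, by 0.25 ± 0.063 for AP1S2, and none rose. EPN3, an epsin, fell by 0.35 ± 0.11 and PIK3C3 by 0.23 ± 0.069. Among the cell type markers APOB of enterocytes, MUC13 of the mucus list and LYZ of the leukocyte list rose in these arrays by 0.37, 0.20 and 0.38 and CDX2 of enterocytes fell by 0.24, 4 of 46 genes measured, and their part in these changes was not tested. SYNJ1, a lipid phosphatase of uncoating, rose by 0.50 ± 0.084 in that group and by 0.33 ± 0.084 with TiO2-NB at 100 µg/ml. PIK3C3 and PIK3R4, the kinase and its partner that make the lipid of early endosomes, fell with TiO2-NB at 100 µg/ml by 0.38 ± 0.069 (204297_at) and 0.29 ± 0.048, though a second probe set of PIK3C3 rose by 0.39 ± 0.10. RAB9A, of traffic from late endosomes to the Golgi, fell by 0.24 ± 0.037 there. At 24 h limma called 0 of the list's probe sets with MWCNT at 10 and 100 µg/ml and with TiO2-NB at 10 µg/ml. Of its probe sets, 8, 23 and 27 had an unadjusted p under 0.05, where 4.29%, 5.56% and 7.59% of all did. For TiO2-NB at 10 µg/ml 2 were called on the compared groups alone, 3 with 18S as a covariate and 1 without exposed replicate 2.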

How the data were processed

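The log2 values, 1 per probe set and array, are RMA summaries as deposited by the authors, which the submitters' processing notes name. Neither its version nor the chip definition is given in the sources used here. RNA was labelled from oligo-dT-primed cDNA, per the labels' protocols. Of 22277 probe sets, 62 control probe sets were left out and 22215 tested; 19064 carry 1 gene symbol in the platform annotation, 1043 several and 2108 none, and members were taken from the first kind.

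Group means over all 30 arrays were fitted with limma 3.58.1 in R 4.3.3 (20 residual degrees of freedom and 3.68 added by eBayes). Tests were two-sided, Benjamini-Hochberg adjustment covered every probe set of a comparison, and calls were made at an adjusted p under 0.05. The scripts were tested on simulated data. An array has no read depth, and 3 arrays a group limit the precision.

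The members and lists were chosen with earlier results of these data known. Named were all called members up to 12 by size in each comparison with control and 6 in the others. Where none was called, those with the smallest p were named, and of the wider list up to 4 called genes a role. Tried as alternatives were a fit of only the groups compared, a replicate block, a filter on dim probe sets, median centring, an intensity trend with robust variances, 18S as a covariate and each array left out. Same-numbered replicates did not deviate together throughout (0 of 17 comparisons had every correlation above 0.1), so no pairing was used. Promoter sequences are those of RefSeq on GRCh38.p14. The labels call the arrays biological replicates and do not say whether they came from separate cultures; p-values then measure the spread between these arrays.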

Additional observations from a re-analysis of the deposited data

Results flagged for a closer look

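The effect of 100 µg/ml differed between 24 h and 1 h, by limma's test of that difference, in 5 member probe sets. With TiO2-NB it was lower at 24 h by -0.52 ± 0.099 for DAB2 (201280_s_at), by -0.30 ± 0.081 for HIP1R (209559_at) and by -0.28 ± 0.084 for DNM1 (215116_s_at). For SNX1 (214531_s_at) it was higher at 24 h by 0.29 ± 0.072. With MWCNT the effect on ITSN2 (209898_x_at) differed by -0.31 ± 0.080. All are log2 differences between effects, with n = 3 arrays in each of 4 groups, and the DAB2 difference was called in every alternative and with any array left out.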

How the results depend on the processing

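Of 40 member calls, 0 changed sign under any of the 36 settings that apply to them, and 3 passed in all of theirs: the fall of DAB2 with TiO2-NB at 100 µg/ml for 24 h, its difference from 1 h, and the fall of ARF6 between the controls. The fit on the compared groups only kept 5 of the 40, 18S as a covariate 21, median centring 31, the intensity trend 34, the replicate block 34 and the filter on dim probe sets 40. In the order MWCNT 10 and 100, TiO2-NB 10 and 100 µg/ml at 1 h, counts of 5, 5, 8 and 4 became 0, 0, 0 and 0 on the compared groups only and 3, 0, 5 and 2 with 18S. The shares of all probe sets were 0.378%, 0.504%, 0.986% and 1.21% on the compared groups only and 3.66%, 1.92%, 6.73% and 7.24% with 18S. Without dim probe sets, which leaves fewer tests, the member counts were 11 and 8 for MWCNT and 10 for TiO2-NB at 100 µg/ml. In those 3 comparisons 12.6%, 14.6% and 15.3% of all probe sets kept were called. The trend gave 10 for MWCNT at 10 µg/ml (8.19% of all probe sets) and centring 2 for TiO2-NB at 10 µg/ml (7.52%). On the compared groups only, TiO2-NB at 100 µg/ml for 24 h gave 1 (0.977% of all probe sets). In that fit its dose and particle differences gave 0 and 0, control time 3, and the time differences 0 (MWCNT) and 2 (TiO2-NB). The MWCNT time difference gave 4 without dim probe sets, 2 with the trend and 0 with 18S. The F-test at 1 h gave 0 on its groups only, 11 without dim probe sets, 8 with the trend, 2 with centring and 2 with 18S. Where no share of all probe sets stands beside a count here, the count is no result about the members. Apart from fewer arrays or fewer tests, the cause was not tested.

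Leaving out 1 array gave 2 to 4, 1 to 6, 1 to 6 and 0 to 3 calls in the 4 comparisons at 1 h, 2 to 3 for TiO2-NB at 100 µg/ml for 24 h, 1 for its dose, 2 for its particle difference, 3 to 8 for control time, 0 to 1 and 1 to 5 for the time differences with MWCNT and TiO2-NB, and 0 to 6 and 2 to 3 for the F-tests at 1 and 24 h. The replicate number as a block gave 2 calls for TiO2-NB at 100 µg/ml for 1 h and 1 for the F-test at 1 h, and moved no other count by more than 1.5 times; correlations of same-numbered arrays ran from -0.15 to 0.21. With 1 array left out, 3.2% to 5.5% and 5.01% to 7.58% of all probe sets were called with 10 and 100 µg/ml MWCNT for 1 h. With TiO2-NB it was 4.62% to 7.79% and 5.29% to 8.23%, and 2.21% to 4.05% at 100 µg/ml for 24 h. For the other counts with 1 array left out this share is not given here. With 3 arrays against 3, an exact test cannot go below 0.1. Probe sets in the lowest 1 in 3, 14 of the members', limit what can be seen of HIP1 most.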
